A study of Homo sapiens with 16 samples.

Results

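The genes described here are 35 genes of cholesterol and fatty acid synthesis, out of 35810 genes in the tables, listed by name from these pathways, with earlier results of these data known. They comprised 5 genes that control the sterol response factors (SREBF1, SREBF2, SCAP, INSIG1 and INSIG2), 7 genes of the mevalonate steps, 11 genes of the later sterol steps, 4 genes of sterol transport and uptake, and 8 genes of fatty acid synthesis. All 35 passed the filter on low counts, and no member had fewer than 187 reads in any library.

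Cells build cholesterol from acetyl-CoA through mevalonate, squalene and lanosterol, and build fatty acids from the same precursor. The factors that switch on both sets of genes, SREBP1 and SREBP2, are made as membrane proteins of the endoplasmic reticulum. When membrane sterol is low, SCAP escorts them to the Golgi, where they are cut and released to the nucleus. When sterol is plentiful, INSIG proteins hold SCAP back, while LXR, a receptor for oxidised sterols, switches on genes of sterol export and of receptor breakdown.

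The RNA libraries, 16 in number, came from pancreatic progenitors at day 19 of differentiation. All came from SA121, a single human embryonic stem cell line that carries an NGN3-GFP reporter of endocrine commitment. Cells received latrunculin B, which depolymerises actin, at 0.5 µM for 3 h (n = 3), 6 h (n = 3), 12 h (n = 2) or 24 h (n = 3), and were compared with control cells at 0 h (n = 3) and with cells kept for 24 h in DMSO, the vehicle (n = 2). The labels tag the 0 h cells with DMSO too, whereas the series text places them before treatment, so whether they met the vehicle is uncertain. The labels do not say whether replicates were separate differentiations, so p-values measure only the spread between these libraries. No vehicle library at 3, 6 or 12 h was used here, so that time in culture and drug cannot be told apart at those times.

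The libraries held 23609727 to 33515398 estimated reads. Of 8 progenitor markers, 7 were at 1 CPM (reads scaled to a common library size) or more in every group, and PTF1A stayed under 1. Their sum was 1229 to 1307 CPM at 0 h, 1250 to 1270 in the DMSO cells at 24 h and 974 to 1155 after 24 h of latrunculin B. The summed CPM of 6 cycling markers was 322 to 384 at 0 h, 182 to 217 in the DMSO cells and 205 to 281 after 24 h of the drug. The summed CPM of 8 endocrine markers ran from 28.3 to 35.5 at 0 h, from 60.6 to 71.5 in the DMSO cells at 24 h and from 105 to 294.5 after 24 h of latrunculin B. The summed CPM of 8 hepatocyte markers was 1302 to 1529 at 0 h, 2217 to 2407 at 6 h, and 2223 and 2844 at 12 h. It lay between 1832 and 1867 in the DMSO cells and between 1531 and 1910 after 24 h of the drug. Replicate 2 of 12 h stood apart with a sum of 1061 CPM over 8 mesenchymal markers, led by COL3A1 with 684 CPM, whereas the other 15 libraries lay between 172 and 447. That library also had the highest hepatocyte sum (2844 CPM) and the highest cycling sum (429.5 CPM) of all libraries. Its progenitor sum was 1013 CPM, against 1218 CPM in replicate 1 of 12 h. In bulk RNA, fewer cells of a type and less RNA per cell cannot be told apart.

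To ask how these genes responded over time, each latrunculin B group was compared with its control by the quasi-likelihood test of edgeR, with calls made below an adjusted p of 0.05. The number of members called higher grew from 11 at 3 h to 16 at 6 h, 21 at 12 h and 27 at 24 h, whereas 0, 4, 1 and 1 were called lower. All 7 mevalonate genes and 10 of 11 sterol genes were higher after 24 h. Over all 16705 genes tested, the share called in either direction was 31.6% at 3 h, 43.3% at 6 h, 35.8% at 12 h and 40.8% at 24 h, against 31.4%, 57.1%, 62.9% and 80.0% of the members. At 3 h the share of members called was therefore that of the background, but the direction was one-sided, since 16.8% of all genes were called higher and 14.7% lower. This split moved with the scaling. At 3 h, 9 members were called higher and 2 lower without scaling between libraries, and 9 and 0 with limma-trend on log2(TPM + 1), while the share of higher calls among all calls was 53.3% with TMM scaling, 36.1% without scaling and 38% on that TPM scale. The shares of all genes called higher and lower were 22.9% and 20.4% at 6 h, 19.1% and 16.8% at 12 h, and 21.9% and 18.8% at 24 h. At 6 h, 9 members were called higher and 4 lower without scaling, and 8 and 3 on log2(TPM + 1), with 37.7% and 36.4% of all calls being higher, against 52.8% with TMM.

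The median log2 fold change of the members was 0.12 at 3 h, 0.18 at 6 h, 0.30 at 12 h and 0.62 at 24 h. The median of all genes tested was 0.0021, -0.01, 0.01 and 0.0081 in the same comparisons. Of the calls, 9 of 11 at 3 h, 11 of 20 at 6 h, 12 of 22 at 12 h and 26 of 28 at 24 h stood whichever single library was left out. Without replicate 2 of 12 h, the library rich in mesenchymal markers, 14 members were called at 12 h, 13 higher and 1 lower. The libraries of the 2 groups did not overlap for 19 members at 3 h, 24 at 6 h, 27 at 12 h and 30 at 24 h, where 48.2%, 57.4%, 51.4% and 63.9% of all genes did not overlap. Between the controls this held for 15 members and 28.8% of all genes, from 3 h to 6 h for 16 members and 43.8%, and from 6 h to 24 h for 28 members and 52.9%.

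**Figure D1:**
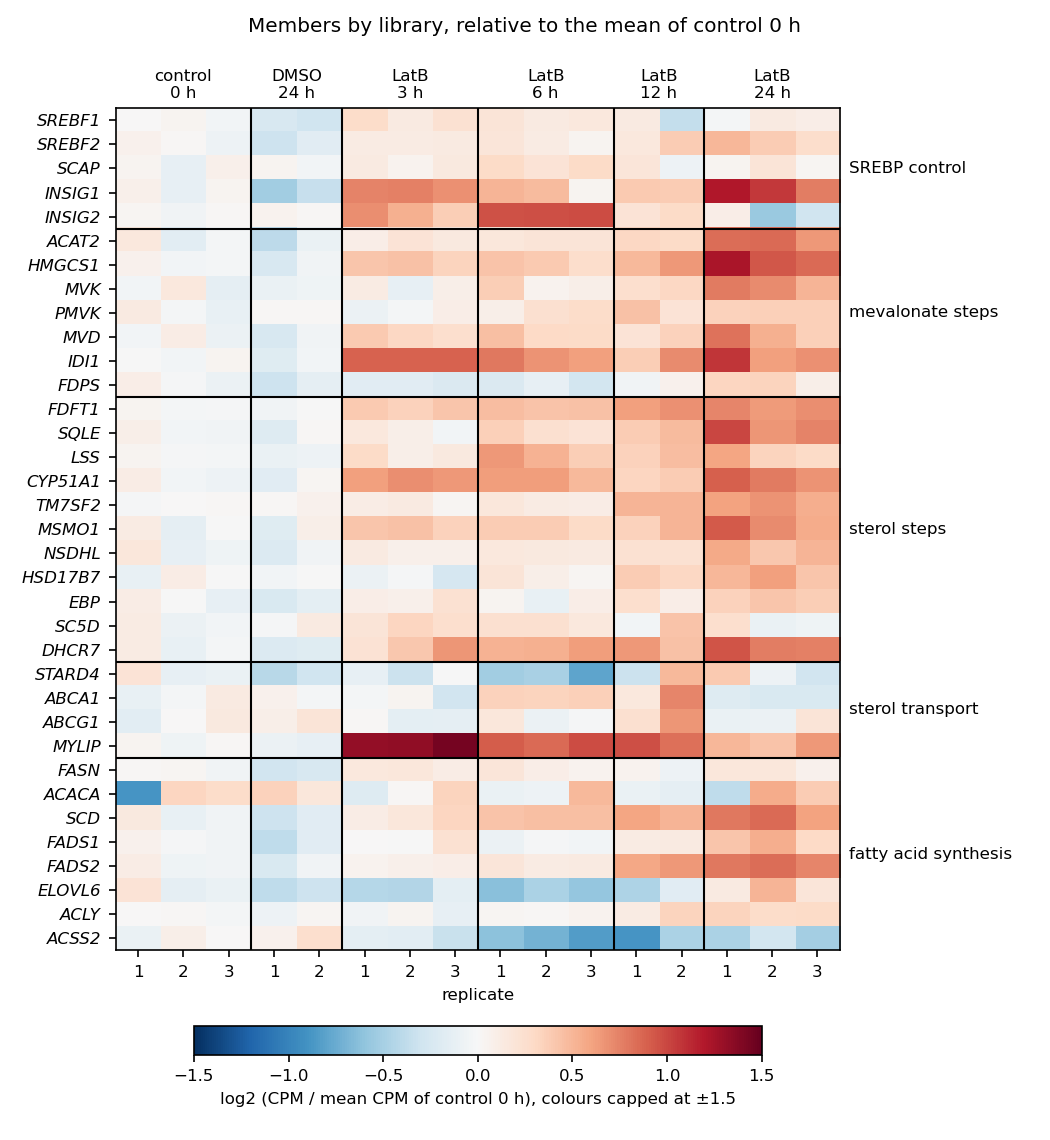
Heat map of the 35 members (rows, grouped by role) in the 16 libraries (columns, grouped by treatment and time). Colour gives log2 of the CPM divided by the mean CPM of control 0 h, with red for higher and blue for lower. Red spreads from a few genes at 3 h, such as IDI1 and MYLIP, to nearly all mevalonate and sterol genes at 24 h, while ACSS2 is blue from 6 h on.

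**Figure D2:**
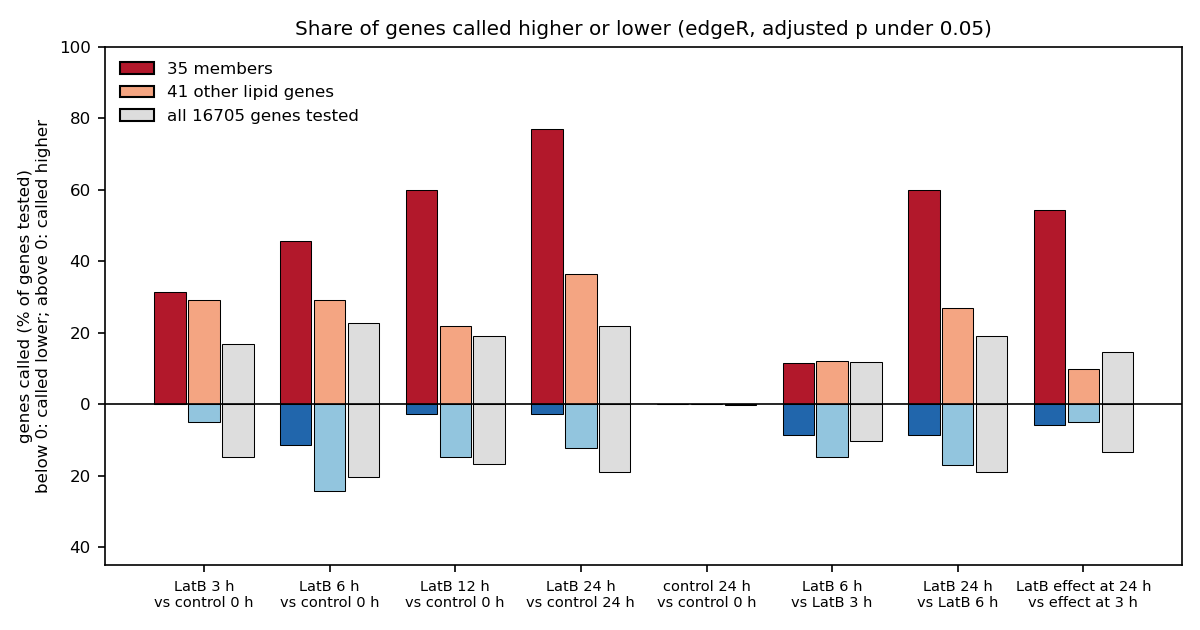
Percentage of genes called higher (above 0) or lower (below 0) in each of the 8 comparisons, for the 35 members, 41 other lipid genes and all 16705 genes tested. The members' share called higher reaches 27 of 35 in the comparison of 24 h of latrunculin B with DMSO, where 21.9% of all genes were called higher.

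The 2 controls were compared with each other, the DMSO cells at 24 h against the 0 h cells. Since the 0 h cells may not have met DMSO, time in culture and vehicle cannot be told apart in this comparison. No member was called by edgeR, and DESeq2 called 1 member, which was lower. An unadjusted edgeR p under 0.05 was found for 11 of 35 members and for 1414 of 16705 genes tested. The difference was negative for 26 of the 35 members, against 8017 of all genes tested. Over all genes, 0.251% were called, 0.0299% higher and 0.221% lower. The median log2 difference of the members was -0.11, below the 0.0058 of all genes, so the 24 h comparison starts from slightly lower control levels than the earlier ones. When the controls were exchanged, 26 members were called at 24 h (25 higher and 1 lower) and 20 at 3 h (19 higher and 1 lower).

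Among the control genes, SREBF2 encodes SREBP2, the main activator of sterol synthesis. Its CPM was 173, 168 and 157 at 0 h and 134 and 148 in DMSO cells, and reached 234, 216 and 199 after 24 h of latrunculin B. All 3 treated libraries at 24 h lay above all 5 controls. The log2 fold change at 24 h was 0.62 ± 0.08 (SE, adjusted p = 7.09e-05), a rise of 1.54-fold.

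At 3 h SREBF2 stood at 179.9, 180.5 and 182 CPM, and at 6 h at 189, 180.1 and 170.3 CPM, and neither comparison was called. At 12 h it stood at 185 and 217 CPM and was called higher (log2 0.28 ± 0.08, adjusted p = 0.0157). This call was lost without replicate 2 of 12 h (log2 0.16, adjusted p = 0.201) and without replicate 3 of control 0 h (log2 0.24, adjusted p = 0.0597). The higher of its 12 h values came from the library rich in mesenchymal markers, whose part in the result was not tested beyond leaving it out.

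SREBF1 encodes SREBP1, which favours genes of fatty acid synthesis. It stood at 63.3, 64.9 and 61.4 CPM at 0 h, at 53.7 and 51.2 CPM in DMSO cells, and at 61.9, 69.2 and 67.7 CPM after 24 h of the drug. The treated libraries at 24 h did not overlap with the DMSO libraries, but straddled the 0 h level. Against the 0 h cells the 24 h difference was 0.07 (adjusted p = 0.575). The log2 fold change over DMSO of 0.34 ± 0.10 (adjusted p = 0.0178) was not called in the 3 alternatives that scale by transcript length (adjusted p 0.422 to 0.429), nor without replicate 1 of control 24 h (adjusted p = 0.067), without replicate 2 of control 24 h (adjusted p = 0.108) and without replicate 2 of LatB 24 h (adjusted p = 0.0518).

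The earlier SREBF1 values were 76.4, 69.6 and 74.2 CPM at 3 h, 72.1, 69.4 and 70.7 CPM at 6 h, and 69.2 and 49.4 CPM at 12 h, none of them called against 0 h. Against the DMSO cells, the 3 h and 6 h levels were called higher for SREBF1 (log2 0.49 and 0.43) and for SREBF2 (log2 0.36 and 0.35). Much of the SREBF1 signal per length came from transcripts other than those annotated as protein coding, mostly retained introns. In TPM, which is scaled by transcript length, these summed to 28.8 ± 8.44 (SD, n = 3) at 0 h and 17.9 ± 0.94 (n = 3) at 6 h. The protein coding transcripts of SREBF1 summed to 10.4 ± 0.53 TPM at 0 h, 11.9 ± 0.97 at 6 h, 9.38 ± 0.20 (n = 2) in DMSO cells at 24 h and 13.4 ± 0.72 (n = 3) after 24 h of latrunculin B. The summed gene level of SREBF1 per length therefore moved the other way from its read count at 3 h and 6 h. SREBF1 overlaps with RAI1 on the opposite strand, and since the sources do not say whether counting used strand, its level is uncertain.

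SCAP encodes the escort of both factors. Its CPM was 141, 127 and 145 at 0 h and 151, 143 and 153 at 3 h, and it rose to 168, 159 and 168 at 6 h. The 6 h libraries lay above all others of SCAP (log2 0.26 ± 0.07, adjusted p = 0.00872), although the call was lost in 5 of 16 alternatives. These were the fit without replicate 2 of control 0 h (log2 0.19, adjusted p = 0.0627), that without scaling (adjusted p = 0.0585), that with the length offset (adjusted p = 0.0716) and both TPM scales (log2 0.13 and 0.14, adjusted p = 0.26). SCAP returned to 156 and 131 CPM at 12 h and to 141, 157 and 141 CPM at 24 h, against 142 and 133 CPM in DMSO cells, and was not called at either time.

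The 2 INSIG genes, whose proteins retain SCAP in the endoplasmic reticulum, went separate ways. INSIG1, itself a target of the SREBPs, stood at 14.9, 12.9 and 14.4 CPM at 0 h and at 23.5, 23.7 and 22.6 CPM at 3 h, with no overlap (log2 0.73 ± 0.12, adjusted p = 0.000587). At 24 h it reached 32.2, 29.3 and 23.9 CPM against 9.76 and 11.02 CPM in DMSO cells. That log2 fold change of 1.45 ± 0.14 (adjusted p = 9.52e-06), a 2.74-fold rise, was the largest among the 35 members at 24 h. Both DMSO libraries of INSIG1 lay below all its 0 h libraries, and against the 0 h cells the 24 h log2 fold change was 1.02.

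Between these times INSIG1 fell back, with 20.02, 19.5 and 14.4 CPM at 6 h and 18.4 and 18.3 CPM at 12 h. The 6 h libraries overlapped with the controls (log2 0.36 ± 0.13, adjusted p = 0.0341), and the call was lost without replicate 2 or 3 of control 0 h (adjusted p = 0.147 and 0.0632) and without replicate 1 or 2 of LatB 6 h (adjusted p = 0.164 and 0.144). At 12 h (log2 0.39 ± 0.14, adjusted p = 0.0448) the call was lost whichever of the 5 libraries compared was left out, with adjusted p from 0.0544 to 0.153. The fall from 3 h to 6 h was called too (log2 -0.37 ± 0.12, adjusted p = 0.046), but was lost in 5 of 6 fits that left out 1 library, with adjusted p up to 0.172.

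INSIG2 responded early and then reversed. It rose from 39.1, 37.0 and 39.0 CPM at 0 h to 62.2, 55.4 and 49.7 CPM at 3 h (log2 0.54 ± 0.12, adjusted p = 0.00393) and to 74.5, 74.7 and 75.8 CPM at 6 h. These last 3 libraries lay closely together and above all others, with a log2 fold change of 0.97 ± 0.12 (adjusted p = 3.27e-05), or 1.96-fold. At 12 h INSIG2 was back at 44.4 and 46.7 CPM, and at 24 h it stood at 40.98, 26.1 and 31.3 CPM against 39.9 and 38.8 CPM in DMSO cells, neither of which was called.

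The effect of latrunculin B on INSIG2 was lower at 24 h than at 3 h (log2 difference -0.81 ± 0.18, adjusted p = 0.00525), whereas that on INSIG1 was higher (0.72 ± 0.19, adjusted p = 0.0117). The difference for INSIG1 was not called without replicate 1 of control 24 h (0.64, adjusted p = 0.069). Between 6 h and 24 h of treatment INSIG2 fell by 1.19 on the log2 scale (SE 0.12, adjusted p = 8.76e-06) and INSIG1 rose by 0.66 (SE 0.12, adjusted p = 0.000914). Both comparisons within treated cells used no control library, so longer treatment and longer culture cannot be told apart in them.

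**Figure D3:**
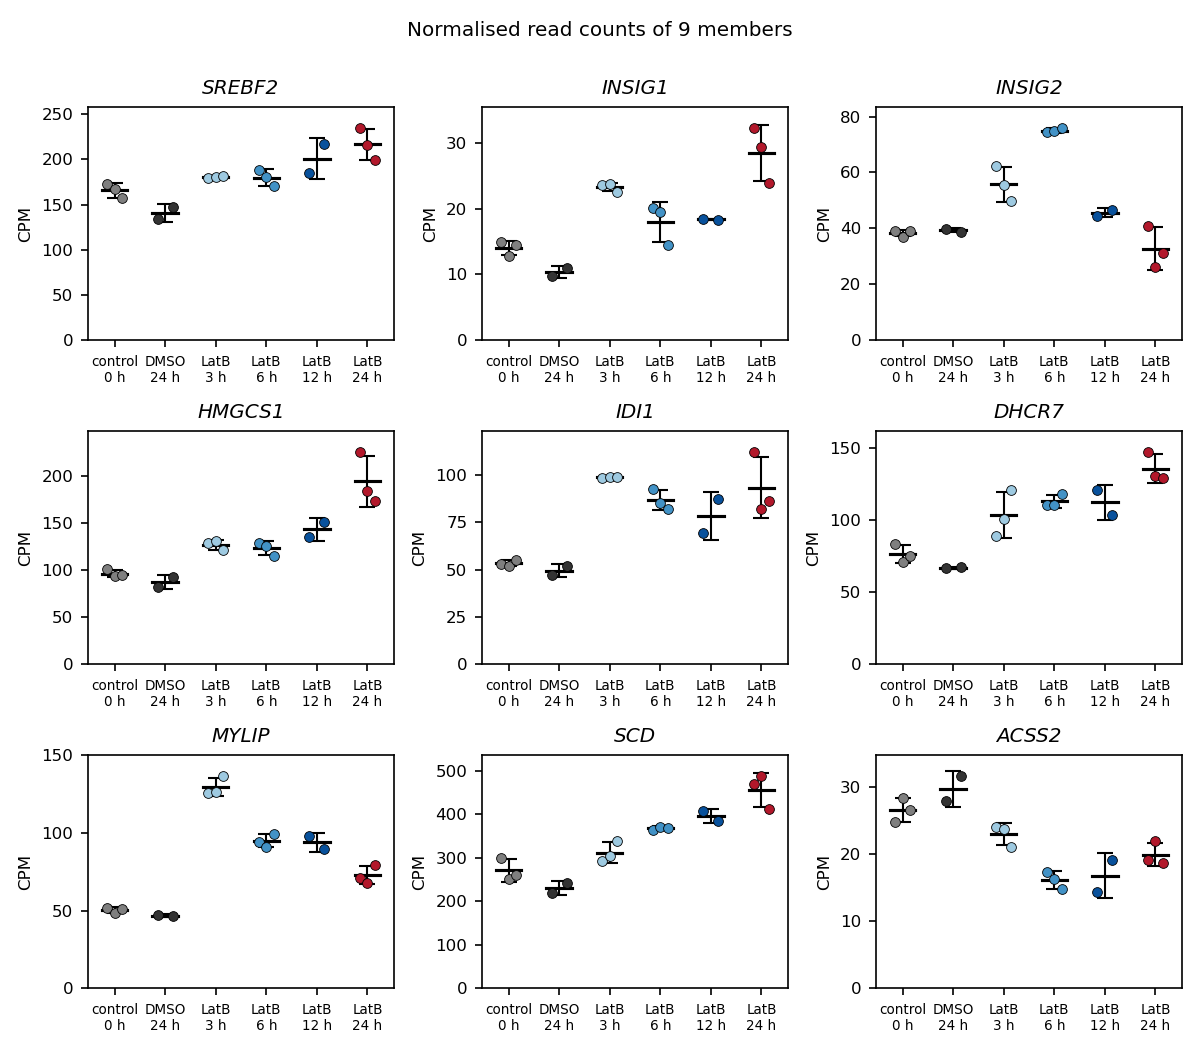
CPM of 9 members by group, with 1 point per library, a horizontal bar at the mean and whiskers of ± 1 SD (n = 2 or 3). INSIG2 peaks at 6 h near 75 CPM and MYLIP at 3 h between 126 and 137 CPM, HMGCS1, DHCR7 and SCD are highest at 24 h, and ACSS2 is lowest at 6 h and 12 h.

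The promoters of SREBF2 and INSIG1, of the mevalonate genes HMGCS1 and IDI1, and of MYLIP are shown as examples of control genes and of genes that rose early or late, because SREBPs act through short DNA elements near the gene start, often beside a CCAAT box bound by NF-Y. RefSeq windows on GRCh38.p14, from 250 bases before to 50 after the start, were found for 30 of the 35 members. The search covered 3 strings on both strands, none of which contains another, namely the core of the sterol regulatory element (TCACNCCAC), the E box CACGTG and CCAAT. The stretches below begin 200 bases before the RefSeq start and stop before the first start that RefSeq or GENCODE annotates. Capitals mark matches, with ATTGG standing for CCAAT on the other strand.
SREBF2 (chr22:41832905-41833104, + strand): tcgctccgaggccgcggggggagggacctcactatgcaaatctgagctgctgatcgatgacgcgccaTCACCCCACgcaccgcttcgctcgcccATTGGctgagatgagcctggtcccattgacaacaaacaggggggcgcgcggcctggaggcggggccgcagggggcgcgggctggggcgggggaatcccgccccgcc
INSIG1 (chr7:155297678-155297775, + strand): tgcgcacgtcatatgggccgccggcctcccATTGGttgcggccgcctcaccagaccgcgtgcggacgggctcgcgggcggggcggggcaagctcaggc
HMGCS1 (chr5:43313513-43313612, - strand): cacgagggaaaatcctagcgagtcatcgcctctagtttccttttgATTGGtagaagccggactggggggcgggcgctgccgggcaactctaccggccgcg
IDI1 (chr10:1049120-1049319, - strand): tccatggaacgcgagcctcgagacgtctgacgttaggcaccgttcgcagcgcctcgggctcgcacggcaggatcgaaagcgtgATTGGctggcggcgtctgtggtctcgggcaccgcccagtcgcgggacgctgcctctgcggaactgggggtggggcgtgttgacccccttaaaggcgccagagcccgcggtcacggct
MYLIP (chr6:16128886-16129085, + strand): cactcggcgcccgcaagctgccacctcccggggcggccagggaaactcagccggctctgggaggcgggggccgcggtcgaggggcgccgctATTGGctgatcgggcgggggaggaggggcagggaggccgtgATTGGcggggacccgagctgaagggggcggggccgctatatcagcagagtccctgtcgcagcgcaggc

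The sterol element core was found in 1.13% of 35116 RefSeq windows and, counted by gene, in 1.39% of 27305 genes. Among the 30 members it was found in 1, SREBF2, where it began at -133 from the start. CCAAT occurred in 34.6% of all windows and, counted by gene, in 39.7% of 27305 genes, against 22 of 30 members (73.3%). MYLIP had 2 CCAAT matches in the stretch shown, and INSIG1, HMGCS1 and IDI1 had 1 each. CACGTG was present in 7.26% of windows, 8.77% of genes and 5 of 30 members (ABCA1, INSIG1, LSS, SC5D and SCAP). A match is a description of the letters only, and windows without one may still be bound.

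The mevalonate genes turn acetyl-CoA into farnesyl diphosphate. Of these 7, the number called higher was 3 at 3 h, 3 at 6 h, 4 at 12 h and 7 at 24 h, with 1 called lower at 6 h. Their median log2 fold change was 0.15, 0.20, 0.30 and 0.75 in turn. Between 6 h and 24 h of treatment 4 of the 7 were called higher and 0 lower, where 19% of all genes were called higher and 18.9% lower. That comparison used no control library, so longer treatment and longer culture cannot be told apart in it.

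HMGCS1, the cytosolic synthase that makes HMG-CoA, rose at every time. It stood at 100.8, 93.4 and 94.6 CPM at 0 h, at 129, 131 and 121 CPM at 3 h, at 129, 126 and 115 CPM at 6 h and at 135 and 152 CPM at 12 h. After 24 h it reached 225, 184 and 173 CPM against 81.8 and 93.0 CPM in DMSO cells. No treated library of HMGCS1 overlapped with its controls, although the 6 h call was lost on the TPM scales (adjusted p up to 0.0689). The log2 fold change was 0.40 ± 0.09 at 3 h (adjusted p = 0.00393) and 1.15 ± 0.10 at 24 h (adjusted p = 4.1e-06), and the difference between the effects was 0.75 ± 0.13 (adjusted p = 0.00123).

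IDI1, the isomerase of isopentenyl diphosphate, gave the largest rise of the mevalonate genes at 3 h. Its CPM went from 53.2, 51.9 and 55.1 at 0 h to 98.3, 99.0 and 98.9 at 3 h, a log2 fold change of 0.89 ± 0.11 (adjusted p = 3.83e-05). It then stood at 92.6, 85.3 and 82.1 CPM at 6 h, 69.3 and 87.1 CPM at 12 h, and 112, 82.0 and 86.1 CPM at 24 h against 47.0 and 51.9 CPM in DMSO cells. All treated libraries exceeded all controls, and at 24 h the log2 fold change was 0.92 ± 0.12 (adjusted p = 7.82e-05). A difference between the 24 h and 3 h effects was not called for IDI1.

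ACAT2, the cytosolic thiolase of the first step, was a late riser. It stood at 28.2, 22.7 and 24.7 CPM at 0 h, 26.95, 29.1 and 27.8 CPM at 3 h, 28.3, 28.7 and 28.7 CPM at 6 h, and 31.1 and 30.7 CPM at 12 h. After 24 h it was at 44.9, 45.3 and 39.5 CPM against 19.1 and 23.5 CPM in DMSO cells, 2.03-fold higher (log2 1.02 ± 0.10, adjusted p = 7.66e-06). The 24 h effect exceeded that at 3 h by 0.87 ± 0.13 (adjusted p = 0.000414). ACAT2 overlaps with TCP1 and SOD2 on the opposite strand, and since the sources do not say whether counting used strand, its level is uncertain.

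FDPS, the synthase of farnesyl diphosphate, first moved the other way. It stood at 64.5, 59.3 and 56.7 CPM at 0 h, 53.6, 53.4 and 51.8 CPM at 3 h and 51.8, 55.1 and 49.7 CPM at 6 h. The 6 h libraries lay below the controls (log2 -0.20 ± 0.07, adjusted p = 0.0375), but the call was lost without replicate 1 of control 0 h (adjusted p = 0.148), replicate 1 of LatB 6 h (adjusted p = 0.0651) or replicate 3 of LatB 6 h (adjusted p = 0.096), and against the DMSO cells no difference was called (log2 0.01). At 12 h it stood at 58.1 and 63.0 CPM, and at 24 h it reached 75.1, 75.6 and 63.9 CPM against 48.7 and 54.7 CPM, with a log2 fold change of 0.47 ± 0.08 (adjusted p = 0.000582).

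The remaining mevalonate genes are MVK and PMVK, kinases that add phosphates to mevalonate, and MVD, the decarboxylase that follows them. At 24 h their log2 fold changes were 0.75 ± 0.13 for MVK, 0.34 ± 0.10 for PMVK and 0.72 ± 0.12 for MVD, with adjusted p of 0.000417, 0.0173 and 0.000306. The PMVK call was lost without replicate 1 or 2 of control 24 h (adjusted p = 0.0938 and 0.0741). MVD was also called at 3 h (0.32 ± 0.10) and 6 h (0.35 ± 0.10), although 5 of 6 fits at 3 h and 2 of 6 at 6 h that left out 1 library lost the call. The protein coding transcripts of MVD stood at 20.1 ± 1.102 TPM (SD, n = 3) at 0 h and 25.4 ± 0.34 (n = 3) at 6 h, while its other transcripts went from 25.95 ± 5.18 to 20.01 ± 3.33 TPM. MVK overlaps with MMAB on the opposite strand, so its level is uncertain in the same way as that of ACAT2.

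The 11 sterol genes carry farnesyl diphosphate through squalene and lanosterol to cholesterol. The number called higher was 4 at 3 h, 7 at 6 h, 9 at 12 h and 10 at 24 h, and none was called lower. Their median log2 fold change was 0.18, 0.27, 0.41 and 0.62. SC5D, a sterol desaturase, was the exception at 24 h, with 101.4, 79.6 and 81.4 CPM against 84.2 and 93.6 CPM in DMSO cells, and was called at no time.

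CYP51A1, the demethylase of lanosterol, rose early and stayed high. It stood at 74.3, 66.9 and 65.5 CPM at 0 h and at 106, 112 and 108 CPM at 3 h, a log2 fold change of 0.66 ± 0.07 (adjusted p = 1.45e-05). The later values were 107, 106 and 96.9 CPM at 6 h, 85.9 and 89.5 CPM at 12 h, and 129, 118 and 110.1 CPM at 24 h against 61.5 and 70.6 CPM in DMSO cells. No treated library overlapped with its controls, and the 24 h log2 fold change was 0.85 ± 0.08 (adjusted p = 6e-06). CYP51A1 overlaps with AKAP9 on the opposite strand.

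DHCR7, the reductase of the final step to cholesterol, had 83.7, 71.0 and 75.2 CPM at 0 h and 89.2, 101.02 and 121 CPM at 3 h. It went on to 110.4, 110.5 and 118 CPM at 6 h, 121 and 104 CPM at 12 h, and 147, 131 and 129 CPM at 24 h against 66.5 and 67.4 CPM in DMSO cells. Treated libraries were above the controls at each time, most clearly at 24 h, where the level was 2.03-fold higher (log2 1.02 ± 0.11, adjusted p = 2.26e-05). The 24 h effect was larger than that at 3 h (0.58 ± 0.15, adjusted p = 0.0113).

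SQLE, the squalene epoxidase that forms a rate-limiting step, was slower. It stood at 58.8, 53.4 and 53.1 CPM at 0 h, 61.4, 58.8 and 53.6 CPM at 3 h, 70.5, 65.3 and 63.7 CPM at 6 h and 72.1 and 76.6 CPM at 12 h. After 24 h it reached 110.0, 87.5 and 91.99 CPM against 48.4 and 55.9 CPM in DMSO cells. Its libraries overlapped with the controls at 3 h and no longer did from 6 h. The 6 h call (log2 0.27, adjusted p = 0.0229) was lost in 7 of 16 alternatives, including 4 of 6 that left out 1 library. The log2 fold change was 0.43 ± 0.10 at 12 h (adjusted p = 0.00376) and 0.89 ± 0.10 at 24 h (adjusted p = 2.13e-05), with a difference of 0.82 ± 0.13 between the 24 h and 3 h effects (adjusted p = 0.000622).

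FDFT1, the squalene synthase, and MSMO1, an oxidase of methyl sterols, were called higher at all 4 times. For MSMO1 the 6 h call was lost without replicate 2 of control 0 h (adjusted p = 0.0604), without scaling and on the TPM scales (adjusted p up to 0.0969), and the 12 h call without replicate 2 of 12 h (adjusted p = 0.0584). FDFT1 rose by 0.39 ± 0.04 at 3 h and 0.72 ± 0.04 at 24 h on the log2 scale, and MSMO1 by 0.40 ± 0.09 and 0.77 ± 0.11. LSS, which closes the ring to lanosterol, and TM7SF2, a sterol reductase, were called from 6 h on, the 24 h call of LSS being lost on the TPM scales (adjusted p up to 0.0817), and NSDHL and HSD17B7, which act in removing methyl groups, from 12 h. The 6 h call of TM7SF2 (log2 0.13, adjusted p = 0.0214) was lost in 11 of 16 alternatives, including 5 of 6 that left out 1 library, and its direction turned on the TPM scales. The 12 h call of NSDHL (log2 0.23, adjusted p = 0.0447) was lost in 12 of 15 alternatives, including 4 of 5 that left out 1 library. That of HSD17B7 (log2 0.34, adjusted p = 0.0112) was lost in 5 of 15, among them the fit without replicate 1 of 12 h (adjusted p = 0.0573). EBP, the sterol isomerase, was called at 24 h (0.56 ± 0.09, adjusted p = 0.000222). FDFT1 and LSS have further copies on alternate sequences whose reads are not included, so their levels are uncertain.

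The 4 transport genes did not move as a block. MYLIP, a ubiquitin ligase that directs lipoprotein receptors to breakdown and an LXR target, gave the largest rise of all members at 3 h. Its CPM went from 52.0, 48.2 and 51.2 at 0 h to 126, 126 and 137, a 2.57-fold rise (log2 1.36 ± 0.06, adjusted p = 1.5e-08). No treated library came near the controls.

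MYLIP then declined, with 94.5, 91.1 and 99.7 CPM at 6 h, 98.3 and 89.8 CPM at 12 h, and 71.1, 68.0 and 79.2 CPM at 24 h against 47.4 and 46.3 CPM in DMSO cells. It remained above its controls at 24 h (log2 0.64 ± 0.07, adjusted p = 2.11e-05). The fall from 3 h to 6 h was called (log2 -0.45 ± 0.06, adjusted p = 0.000252), as was that from 6 h to 24 h (-0.39 ± 0.06, adjusted p = 0.000302). The 24 h effect was smaller than the 3 h effect by a log2 difference of -0.73 ± 0.09 (adjusted p = 0.000134).

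ABCA1 and ABCG1, exporters of cholesterol and like MYLIP targets of LXR, behaved differently. ABCA1 stood at 46.0, 48.6 and 54.3 CPM at 0 h, 48.6, 51.2 and 40.8 CPM at 3 h, 63.0, 62.5 and 63.5 CPM at 6 h, and 55.3 and 82.3 CPM at 12 h. At 24 h it was at 43.3, 42.5 and 42.5 CPM against 52.1 and 48.7 CPM in DMSO cells, which was not called. All 3 libraries of 6 h were above the controls (log2 0.34 ± 0.12, adjusted p = 0.0303), but 5 of the 6 fits with 1 library left out lost this call (adjusted p 0.0773 to 0.102). From 6 h to 24 h ABCA1 fell by 0.56 on the log2 scale (SE 0.12, adjusted p = 0.00225).

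The calls at 12 h of both exporters rested on replicate 2 of 12 h, the library rich in mesenchymal markers. ABCG1 stood at 9.17, 10.3 and 11.3 CPM at 0 h and at 12.1 and 16.2 CPM at 12 h (log2 0.47 ± 0.14, adjusted p = 0.0174), and its other groups lay between 9.28 and 11.7 CPM. Without that library, the 12 h log2 fold change was 0.24 for ABCG1 (adjusted p = 0.255) and 0.16 for ABCA1 (adjusted p = 0.303), instead of 0.47 ± 0.13 for ABCA1 with it (adjusted p = 0.0122). Without replicate 1 of control 0 h the ABCG1 call was lost too (adjusted p = 0.0598).

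STARD4, which carries cholesterol between membranes, dipped at 6 h. It stood at 23.6, 18.8 and 19.1 CPM at 0 h, 18.8, 16.4 and 20.5 CPM at 3 h and 14.3, 14.6 and 11.8 CPM at 6 h. The 6 h libraries were below all others (log2 -0.59 ± 0.20, adjusted p = 0.0297), and the call was lost without replicate 1 of control 0 h (adjusted p = 0.108) or replicate 3 of LatB 6 h (adjusted p = 0.098). Values at 12 h were 16.4 and 28.6 CPM, and at 24 h they were 26.8, 19.5 and 16.8 CPM against 15.4 and 16.7 CPM in DMSO cells, with neither called. Against the DMSO cells the 6 h difference was not called (log2 -0.24, adjusted p = 0.427).

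Genes of fatty acid synthesis were called mostly at 24 h. Of the 8, the number called higher was 1 at 3 h, 1 at 6 h, 3 at 12 h and 6 at 24 h, and the number called lower was 0, 2, 1 and 1. The median log2 fold change was 0.07, 0.07, 0.06 and 0.52. Between 6 h and 24 h of treatment 6 were called higher and 0 lower, against 19% and 18.9% of all genes, in a comparison that used no control library.

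SCD, the desaturase that makes oleate, climbed steadily. It stood at 300.1, 252 and 261 CPM at 0 h, 292, 305 and 338 CPM at 3 h, 364, 371 and 369 CPM at 6 h, and 407 and 384 CPM at 12 h. After 24 h it reached 469, 488 and 411 CPM against 219 and 241 CPM in DMSO cells. The groups overlapped at 3 h only, and the log2 fold change was 0.44 ± 0.08 at 6 h (adjusted p = 0.000546) and 0.99 ± 0.09 at 24 h (adjusted p = 5e-06).

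FADS2 and FADS1, the desaturases of polyunsaturated fatty acids, lie on chromosome 11, where FADS1 falls wholly within the span of FADS2 on the opposite strand. Since the sources do not say whether counting used strand, the levels of FADS1 and FADS2 are uncertain. FADS2 stood at 235, 208 and 210.4 CPM at 0 h, 225, 230.1 and 234 CPM at 3 h, and 247, 237 and 239 CPM at 6 h, before stepping up to 327 and 342 CPM at 12 h. At 24 h it was at 376.9, 389 and 361 CPM against 186 and 209.7 CPM in DMSO cells, 1.90-fold higher (log2 0.93 ± 0.06, adjusted p = 6.78e-07). The rise at 12 h was called as well (0.62 ± 0.06, adjusted p = 9.03e-06), and both 12 h libraries lay above every control.

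FADS1 was called at 24 h, at 108, 118 and 99.1 CPM against 62.0 and 72.1 CPM in DMSO cells (log2 0.69 ± 0.09, adjusted p = 5.17e-05). Before that it stood at 84.7, 79.7 and 77.9 CPM at 0 h, 81.1, 80.5 and 94.3 CPM at 3 h, 76.1, 79.8 and 78.5 CPM at 6 h, and 87.8 and 88.5 CPM at 12 h. The 24 h libraries lay above all other libraries of the gene. The 24 h effect exceeded that at 3 h by 0.61 ± 0.11 (adjusted p = 0.00166). Both calls were lost in the 3 alternatives that scale by transcript length, with adjusted p up to 0.0914 at 24 h and up to 0.461 for the difference.

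ELOVL6, which lengthens palmitate to stearate, fell and then rose. It went from 44.7, 35.4 and 36.1 CPM at 0 h to 28.7, 28.7 and 34.96 CPM at 3 h, which was not called, and 25.1, 27.8 and 26.0 CPM at 6 h. The 6 h libraries were below all 5 controls (log2 -0.56 ± 0.12, adjusted p = 0.00242 against 0 h), but the difference from the DMSO cells was not called (log2 -0.21, adjusted p = 0.246). It stood at 28.1 and 34.3 CPM at 12 h. At 24 h it was at 42.4, 55.2 and 43.9 CPM against 29.7 and 31.1 CPM in DMSO cells, called higher (log2 0.63 ± 0.14, adjusted p = 0.00245). Against the 0 h cells the 24 h difference was not called (log2 0.28, adjusted p = 0.0734). The 24 h effect differed from that at 3 h by 0.97 ± 0.18 (adjusted p = 0.0018).

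ACSS2, which makes acetyl-CoA from acetate, was called lower at 6 h, 12 h and 24 h. It stood at 24.8, 28.3 and 26.7 CPM at 0 h, 24.0, 23.8 and 21.1 CPM at 3 h, 17.4, 16.3 and 14.8 CPM at 6 h and 14.4 and 19.2 CPM at 12 h. At 24 h it was at 19.2, 21.9 and 18.8 CPM against 27.9 and 31.7 CPM in DMSO cells. Treated and control libraries were apart at each of these times. The log2 fold change was -0.72 ± 0.11 at 6 h (adjusted p = 0.00014), -0.66 ± 0.12 at 12 h (adjusted p = 0.00101) and -0.58 ± 0.12 at 24 h (adjusted p = 0.00153). ACSS2 overlaps with GGT7 on the opposite strand.

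FASN, the fatty acid synthase, was called higher at 24 h (log2 0.40 ± 0.06, adjusted p = 0.000121), with 437, 438 and 407 CPM against 318 and 329 CPM in DMSO cells. That call was lost in the 3 alternatives that scale by transcript length (log2 0.09 to 0.11, adjusted p up to 0.415). Its 0 h values of 394, 399 and 375 CPM overlapped with none of the 3 h values of 436, 437 and 421 CPM, but that call (0.15 ± 0.05, adjusted p = 0.0366) was lost in all 6 fits that left out 1 library. ACLY, which makes cytosolic acetyl-CoA from citrate, rose by 0.23 ± 0.06 at 12 h and 0.32 ± 0.06 at 24 h on the log2 scale. Without replicate 2 of 12 h, the library rich in mesenchymal markers, its 12 h value was 0.12 and not called (adjusted p = 0.159), and 4 other alternatives lost that call (adjusted p up to 0.177). ACACA, the carboxylase of acetyl-CoA, was called at no time. It had 23.1, 53.3 and 51.5 CPM at 0 h, a spread that spans most of its values elsewhere, and has copies on alternate sequences whose reads are not included.

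The difference between the 24 h and 3 h effects was called for 21 of 35 members, 19 with a larger and 2 with a smaller log2 effect at 24 h. Over all genes tested, 27.9% were called, 14.6% upward and 13.4% downward, and the median difference was 0.40 for the members against -0.01 for all genes. Without scaling 23 members had a larger and 2 a smaller effect at 24 h, and 69% of all calls were upward instead of 52.1%. The 2 with a smaller effect at 24 h were INSIG2 and MYLIP. The comparison of 24 h with 6 h of treatment called 21 members higher and 3 lower (INSIG2, ABCA1 and MYLIP), against 37.9% of all genes called. It used no control library, so longer treatment and longer culture cannot be told apart in it. Without scaling 25 rose and 3 fell, and 73.8% of all calls were higher instead of 50.1%. From 3 h to 6 h, 4 members were called higher and 3 lower, with 22.2% of all genes called. On the TPM scales 0 were called higher and 3 lower there, and with the length offset 1 and 3.

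**Figure D4:**
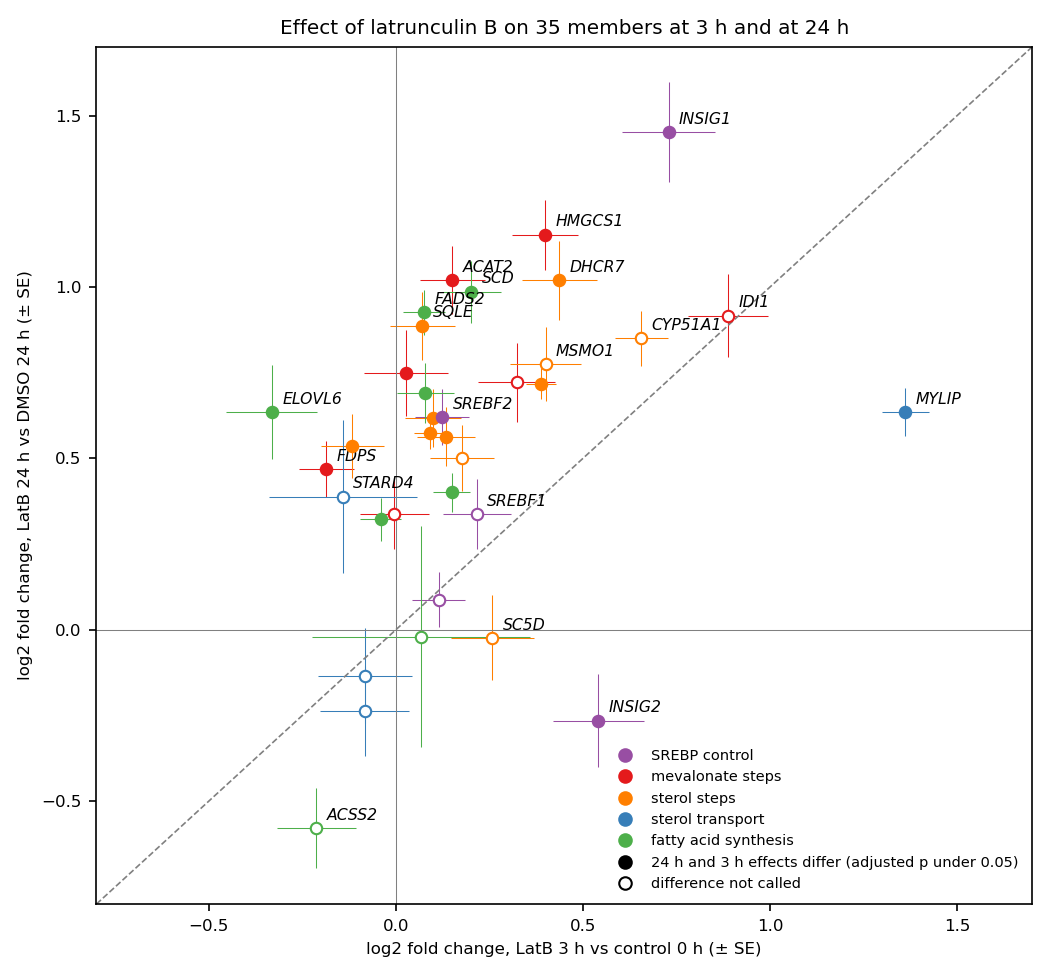
Log2 fold change of each member at 24 h against DMSO (vertical) and at 3 h against control 0 h (horizontal), with bars of ± 1 SE. Filled points mark the 21 members whose 2 effects differ at an adjusted p under 0.05. Of these, 19 lie above the dashed line of equal effects, while INSIG2 and MYLIP lie below it.

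In all, 8 members were called higher at all 4 times (CYP51A1, DHCR7, FDFT1, HMGCS1, IDI1, INSIG1, MSMO1 and MYLIP), with the limits given above for INSIG1, MSMO1 and HMGCS1. Another 4 were called at 24 h and at no earlier time (EBP, FADS1, MVK and SREBF1). ELOVL6 and FDPS were called lower at 6 h and higher at 24 h. SC5D and ACACA were the 2 members called at none of the 4 times. The share of all genes with each of these patterns was not worked out, and the 3 h, 6 h and 12 h comparisons share the 0 h controls. These counts therefore describe the members only.

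Levels between genes were compared per length, in TPM. At 0 h the highest members were FADS2 at 128 ± 11.2 TPM (SD, n = 3) and FDFT1 at 119 ± 3.23, which did not differ beyond their spread, followed by FDPS at 104 ± 2.001. The lowest were ACACA at 7.07 ± 2.85 and ABCG1 at 5.53 ± 0.54 TPM. INSIG1 stood at 9.32 ± 1.02 TPM and INSIG2 at 44.2 ± 3.55 TPM at 0 h, and at 19.0 ± 3.10 and 38.7 ± 7.80 TPM after 24 h of latrunculin B. SREBF2 stood at 50.5 ± 1.91 TPM at 0 h, and at 62.1 ± 7.07 TPM after 24 h of the drug against 44.01 ± 3.41 TPM (n = 2) in DMSO cells.

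The summed endocrine markers rose with the 24 h group. In replicate 1 of LatB 24 h that sum was 105 CPM, against 294.5 CPM in replicate 2 and 269.8 CPM in replicate 3. Within these 3 libraries, 18 of the 35 members were highest in replicate 1 (among them HMGCS1, INSIG1 and SQLE), 14 in replicate 2 (among them SCD, FADS2 and ELOVL6) and 3 in replicate 3. The part of the endocrine markers in the results was not tested. The hepatocyte sum was above its 0 h range in every treated library and in both DMSO libraries, and 2 of the 3 LatB 24 h libraries, at 1531 and 1606 CPM, lay below the DMSO cells. Its part in the results was not tested either.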

How the data were processed

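Estimated counts and TPM were deposited by the authors for each of the 16 libraries, as transcript tables of Salmon 1.3.0 on hg38 according to the submitters' processing notes. The study's methods describe another route (STAR gene counts), so the upstream settings are uncertain. Whether strand was used is not given in the sources used here. A deposited series table holds the authors' fold changes and p-values with 16 columns of per-sample values, and none of these was used.

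Transcripts were joined to genes by identifier through GENCODE release 44 (165533 of 177456 matched, and 2.92% to 3.17% of reads per library did not). Counts were summed per gene and rounded. Salmon splits reads among like transcripts, which leaves genes that have close copies uncertain. The counts of 16705 genes that passed filterByExpr were tested with edgeR 4.0.16 (quasi-likelihood, two-sided, TMM, all 6 groups in one fit without replicate numbers, R 4.3.3), with Benjamini-Hochberg adjustment over all genes and a threshold of 0.05. SE is the log2 fold change divided by the square root of F. CPM uses TMM-scaled library sizes (factors 0.947 to 1.05). Differences between genes use TPM. Alternatives were DESeq2 1.42.0, limma-trend (limma 3.58.1) on log2(TPM + 1) and log2(TPM + 0.1), other scalings, filters and samples. The scripts were tested on simulated data. Totals of 23609727 to 33515398 reads set the precision, the lowest member count being 187.

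The members and lists were chosen with earlier results of these data known. Per-library values are given for the 5 control genes and, by role, for the 3 largest called rises and falls in any comparison of latrunculin B with a control. Of the other lipid genes, the largest called rise and fall of each such comparison are named. Values of FASN, ACACA and SC5D were added after they were seen. Promoter windows and genomic positions are those of RefSeq on GRCh38.p14.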

Additional observations from a re-analysis of the deposited data

Results flagged for a closer look

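The members below stood out because the effect of latrunculin B at 24 h (over DMSO) differed from that at 3 h (over control 0 h) in a test of the difference itself, at an adjusted p under 0.05 with edgeR. Values are log2 differences, 24 h minus 3 h. Over all genes, 27.9% were called in this test.

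Among the control genes, the difference was 0.72 for INSIG1, -0.81 for INSIG2 and 0.50 for SREBF2. Among mevalonate genes it was 0.87 for ACAT2, 0.75 for HMGCS1, 0.72 for MVK and 0.65 for FDPS. The sterol genes gave 0.33 for FDFT1, 0.82 for SQLE, 0.48 for TM7SF2, 0.52 for NSDHL, 0.65 for HSD17B7, 0.43 for EBP and 0.58 for DHCR7. MYLIP, of the transport genes, gave -0.73. Genes of fatty acid synthesis gave 0.25 for FASN, 0.78 for SCD, 0.61 for FADS1, 0.85 for FADS2, 0.97 for ELOVL6 and 0.36 for ACLY.

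The 2 effects rest on different controls, and the DMSO cells at 24 h had a median member level 0.11 below the 0 h cells on the log2 scale. Mean FASN was 431.5 CPM after 3 h and 427.7 CPM after 24 h of the drug, against 389.2 CPM at 0 h and 323.8 CPM in DMSO cells. The FASN call was lost in 6 of 20 alternatives, with values down to 0.0642. Leaving out any 1 library kept 18 of the 21 calls. EBP (0.39, adjusted p = 0.0694) and INSIG1 (0.64, adjusted p = 0.069) were lost without replicate 1 of control 24 h, and FASN was lost in 2 of the 11 fits.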

How the results depend on the processing

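Single values were followed only for members called in the fit used above, and for SREBF1 and SREBF2 in each comparison of latrunculin B with a control. Over all alternatives, 1953 of these 2210 values kept their direction and their side of the threshold, 228 lost the call, 9 gained it and 20 turned direction. Calls gained by other members were not counted there. In a fit of only the compared groups, 16 members were called at 3 h instead of 11, and 23 at 6 h instead of 20. At 24 h against DMSO the count of members called ran from 24 to 29. At 3 h it was 20 instead of 11 when the DMSO cells at 24 h served as the control. At 6 h it was 13 without scaling and 13 with an offset for transcript length, and 11 with limma-trend on log2(TPM + 1) and 11 on log2(TPM + 0.1), instead of 20. At 12 h it was 13 in a fit of only the compared groups and 14 with either TPM scale, instead of 22. From 3 h to 6 h of treatment it was 4 with the length offset, 11 with only the compared groups and 3 with either TPM scale, instead of 7. Between the controls DESeq2 called 1 member instead of 0. Leaving out 1 library gave 9 to 11 calls at 3 h, 14 to 20 at 6 h, 14 to 20 at 12 h, 26 to 29 at 24 h, 0 between the controls, 3 to 5 from 3 h to 6 h, 21 to 25 from 6 h to 24 h and 18 to 24 for the difference between effects. The 12 h count of 14 was without replicate 2 of 12 h. From 3 h to 6 h, counts of 3 came without replicate 1 or 3 of LatB 6 h, and counts of 4 without replicate 2 or 3 of LatB 3 h or replicate 2 of LatB 6 h. Where an arm kept 1 library, that library was assumed to vary like the other groups.

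Of the values followed, these turned direction. SREBF1 was at -0.0811 (length offset), -0.14 and -0.14 (log2(TPM + 1) and log2(TPM + 0.1)) at 3 h, at -0.30, -0.36 and -0.37 at 6 h under the same settings, and at 12 h at 0.18 with the DMSO control and between -0.36 and 0.13 with 1 library left out. Its 12 h fall of -0.36 came without replicate 1 of 12 h and was called (adjusted p = 0.00201). SREBF2 was at -0.0408, -0.12 and -0.12 at 3 h and at -0.0747 and -0.0761 on the TPM scales at 6 h. On the TPM scales FASN was at -0.0309 and -0.0313 at 3 h, and at 6 h MVD was at -0.0173 and -0.0176 and TM7SF2 at -0.0542 and -0.0549. FDPS at 6 h was at 0.0141 against the DMSO cells. The cause was not tested.

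Without scaling, the median of all genes moved to -0.10 at 6 h and to 0.14 from 6 h to 24 h. Same-numbered libraries did not deviate together (correlations of deviations -0.24 to 0.12), so the numbers were not taken as pairs. With the replicate number as a block, 12, 20, 19 and 28 members were called at 3, 6, 12 and 24 h, 0 between the controls, 6 from 3 h to 6 h, 24 from 6 h to 24 h and 23 for the difference between effects, and no count moved by over 1.5 times. The least covered member, MVK, rested on 187 to 464 reads per library.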

Other observations

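Outside the 35 members, 41 other lipid genes were read in the same fits, covering later steps of lipid synthesis, the cutting and retention of the SREBPs, lipoprotein uptake and storage, and the LXR factors. The number called higher and lower was 12 and 2 at 3 h, 12 and 10 at 6 h, 9 and 6 at 12 h, and 15 and 5 at 24 h, and their median log2 fold changes were 0.04, 0.03, 0.01 and 0.07. The shares called were 34.1%, 53.7%, 36.6% and 48.8%, against 31.6%, 43.3%, 35.8% and 40.8% of all genes.

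SOAT1, which esterifies cholesterol for storage, gave the largest called rise of these at 3 h and at 6 h. It went from 84.2, 76.3 and 78.3 CPM at 0 h to 114, 113 and 111 CPM at 3 h and 141, 152 and 139 CPM at 6 h, where its log2 fold change was 0.86 ± 0.07 (adjusted p = 1.03e-06). TMEM97, a membrane protein of sterol trafficking, led at 24 h, with 61.0, 61.0 and 53.6 CPM against 32.2 and 35.7 CPM in DMSO cells (log2 0.79 ± 0.09, adjusted p = 2.73e-05). VLDLR, the receptor of very low density lipoprotein, fell most at both 3 h and 24 h. It stood at 35.3, 32.04 and 35.2 CPM at 0 h, 20.7, 19.0 and 15.03 CPM at 3 h, and 20.7, 12.98 and 14.6 CPM at 24 h against 30.3 and 34.2 CPM in DMSO cells, with log2 fold changes of -0.90 ± 0.25 (adjusted p = 0.0125) and -1.004 ± 0.27 (adjusted p = 0.00943).

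The largest called fall was that of SCD5, a desaturase, at 6 h (log2 -0.45 ± 0.11, adjusted p = 0.00579) and that of SCARB1, a lipoprotein receptor, at 12 h (-0.69 ± 0.13, adjusted p = 0.00107). LRP1, a large endocytic receptor, gave the largest rise at 12 h (0.95 ± 0.28, adjusted p = 0.017), but with 661 CPM in replicate 2, the library rich in mesenchymal markers, and 247 CPM in replicate 1, against 217, 231 and 256 CPM at 0 h. VLDLR also differed between the 12 h libraries, with 16.3 CPM in replicate 1 and 38.0 CPM in replicate 2.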
